A study of Mus musculus with 6 samples.

Results

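The 9 genes described here code for the Nodal branch of TGF-beta signalling and were chosen by name: the ligands *Nodal* and *Gdf3*, the co-receptor *Tdgf1* (Cripto), the antagonists *Lefty1*, *Lefty2* and *Cer1*, the nuclear partner *Foxh1*, and the feedback inhibitors *Smad7* and *Skil*. All 9 were among the 37620 genes of the count table, and 8 of them were among the 16023 genes with enough reads to be tested. *Cer1* was the exception. Polyadenylated RNA was sequenced from E14 cells, a mouse embryonic stem cell (ESC) line, in 3 wild-type libraries and 3 libraries of ESCs whose ubiquitin-conjugating enzyme UBE2D3 carried S138A, an alanine in place of a serine. The mutation was made with CRISPR/Cas9 in the same E14 background, and both genotypes were grown in serum with the cytokine LIF. The study isolated several mutant clones and took a single S138A clone, with a revertant derived from it, into its functional work. No revertant is in this series, and the paper does not say which clone gave these libraries. An effect of the mutation and one of a clone therefore cannot be told apart here. The libraries are called wild-type 1 to 3 and S138A A to C, because the S138A columns carry no label replicate number. Nothing states that the libraries came from separate cultures, so the p-values measure the spread between these libraries, which may be technical.

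Nodal is a secreted TGF-beta ligand that signals through activin receptors and a co-receptor of the Cripto family, after which phosphorylated SMAD2 and SMAD3 enter the nucleus with SMAD4. There they act with FOXH1 at target genes, among which are *Nodal* itself and the Lefty genes, whose products block the ligand and its co-receptor. In mouse ESCs the pathway is active at a low level, and in the embryo it patterns the epiblast and induces mesendoderm.

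Library totals ranged from 33227593 to 37169770 counts. On the first principal component, which held 57.2% of the variance, wild-type 3 and S138A C lay far from the remaining 4 libraries, while the second (25.6%) separated the genotypes. The labels do not name this split. The pluripotency genes *Pou5f1* (1269 ± 220.6 against 1265 ± 270.1 CPM; SD, n = 3) and *Nanog* (722 ± 186.1 against 659.3 ± 99.4 CPM) were abundant in both genotypes, as an ESC label requires. Levels are CPM, read counts scaled to a common library size, after TMM scaling, which corrects library sizes for composition. In bulk RNA, fewer cells expressing a gene and less RNA per cell cannot be told apart.

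No member of the pathway passed the comparison of the genotypes when all 6 libraries were fitted with edgeR's quasi-likelihood test, and neither did any other gene. The share called was 0% of 16023 genes at an adjusted p under 0.05, although 2270 genes, *Smad7* among them, had an unadjusted p under 0.05. limma-voom also called 0 genes, and DESeq2 called 794, or 4.96%, of which *Smad7* was the only member. A fit with the replicate digit as a block called 19.8% of genes, and 2 of the 8 members. Leaving out wild-type 3 and S138A C left 2 libraries per genotype, and called 29.6% of genes and 4 of the 8 members. A term for those libraries called 27.6% and 3 of the 8. Both settings were chosen because these data set the 2 libraries apart. The median squared difference between libraries over counting noise was 2.52 for wild-type 1 and 2, and 3.8 for S138A A and B. It was 34.7 to 56.1 for pairs within a genotype that held wild-type 3 or S138A C. The p-values without those libraries thus rest on the spread of 2 close pairs. The members' median log2 fold change was 0.24 in the fit of 6 libraries, against 0.02 over all genes tested. It was −0.08 without S138A C and 0.03 without both wild-type 3 and S138A C, so its sign rested on 1 library.

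**Figure D1:**
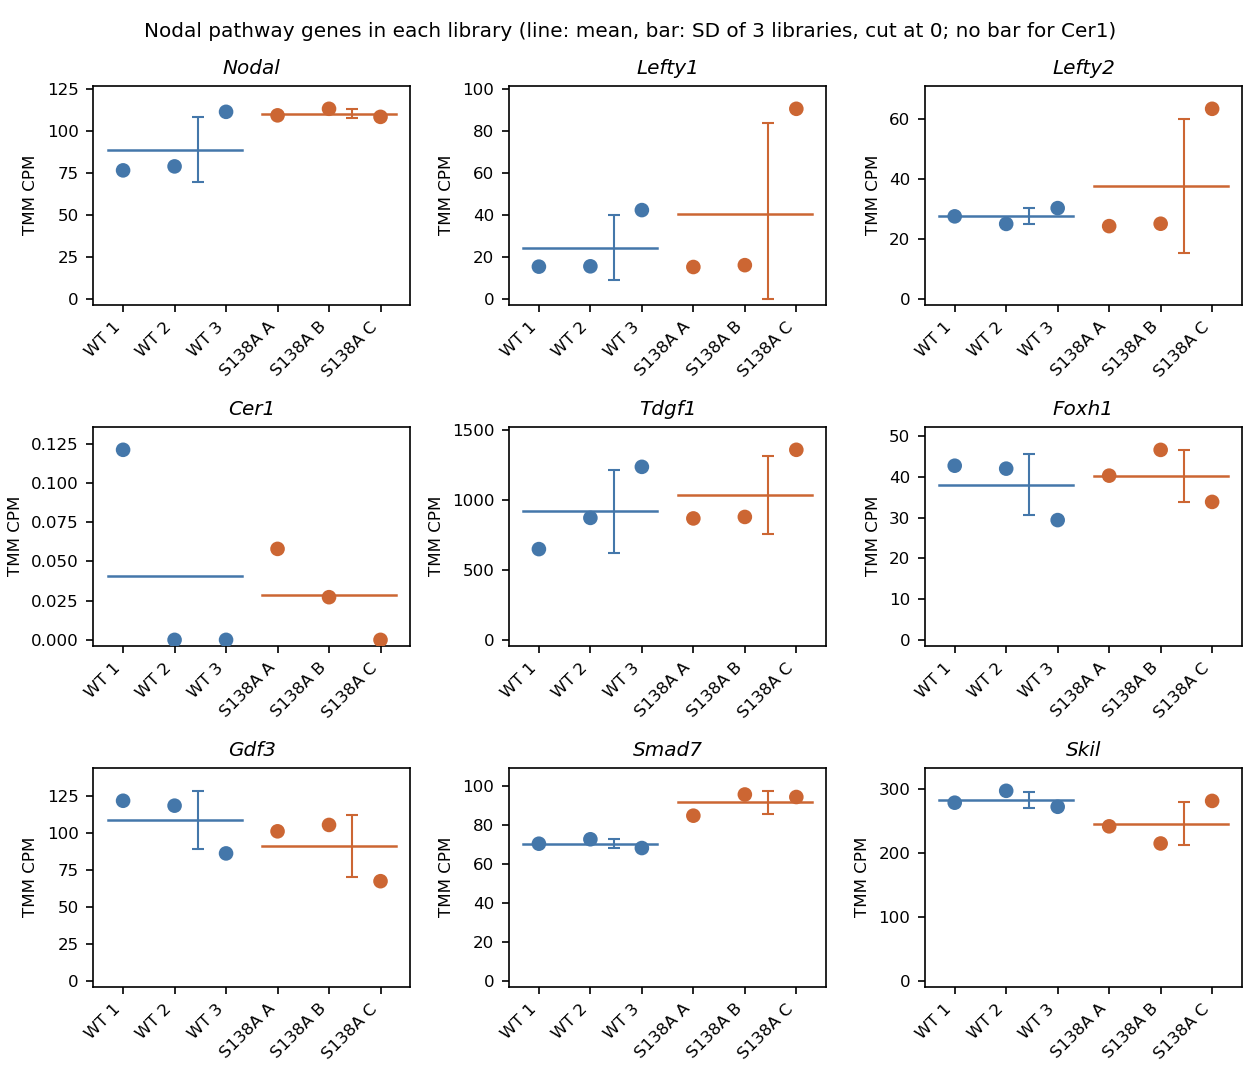
TMM-scaled CPM of the 9 genes in the wild-type (WT, blue) and S138A (orange) libraries, with the mean as a line and the SD as a bar that stops at 0. *Smad7* is the member whose genotypes do not overlap, and S138A C is the highest library for *Lefty1*, *Lefty2* and *Tdgf1*.

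Per kilobase of exon, wild-type ESCs held far more *Tdgf1* than any other member. *Tdgf1* reached 351 ± 113 CPM per kilobase (SD, n = 3). *Gdf3* (44.8 ± 8.09) and *Nodal* (42.5 ± 9.30) followed and did not differ beyond their spread. *Skil* (29.2 ± 1.34) and *Foxh1* (27.9 ± 5.51) formed the next pair of neighbours within their spread. *Smad7* (15.6 ± 0.497), *Lefty1* (13.9 ± 8.84) and *Lefty2* (10.6 ± 1.01) were lowest among the tested members, and *Lefty1* overlapped both of its neighbours. *Cer1*, a secreted antagonist of Nodal and BMP ligands, had 4, 0 and 0 counts in wild-type libraries against 2, 1 and 0 with S138A, too few to test.

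Among the ligands, *Nodal* was lowest in wild-type 1 and 2. It measured 76.6, 79.0 and 111.5 CPM in wild-type 1 to 3 and 109.4, 113.3 and 108.5 CPM in S138A A to C. Wild-type 3 thus lay within the S138A range, while the other wild-type libraries lay below it. The log2 fold change of S138A against wild-type was 0.31 (SE 0.16, 95% interval −0.06 to 0.68, adjusted p = 0.432, edgeR). Without wild-type 3 and S138A C it was 0.52 (SE 0.06, adjusted p = 0.00122, edgeR), and with a term for those libraries 0.33 (adjusted p = 0.049, edgeR). *Nodal* did not pass with the replicate block (0.33, adjusted p = 0.0844, edgeR), by DESeq2 (adjusted p = 0.429) or by limma-voom (adjusted p = 0.414).

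*Gdf3*, a TGF-beta ligand of pluripotent cells that also uses Cripto, leaned the other way. It measured 121.6, 118.3 and 86.1 CPM in wild-type libraries against 101.0, 105.3 and 67.4 CPM with S138A. The lowest library of each genotype was the one that stood apart, wild-type 3 at 0.718 and S138A C at 0.653 of the mean of its own genotype's other libraries. S138A minus wild-type was −0.25 on the log2 scale (SE 0.21, 95% interval −0.75 to 0.24, adjusted p = 0.633, edgeR). With the replicate block it was −0.26 and passed (adjusted p = 0.0391, edgeR), as it did with wild-type 3 and S138A C left out (−0.22, adjusted p = 0.0244). It was −0.08 without S138A C alone and −0.40 without wild-type 3 alone.

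*Tdgf1* encodes Cripto, the membrane-anchored co-receptor that Nodal and GDF3 need. It measured 649.9, 873.5 and 1239 CPM in wild-type and 869.6, 880.2 and 1361 CPM in S138A libraries. The libraries standing apart were the highest of both genotypes, at 1.63 and 1.56 times the mean of their genotype's other libraries. The log2 fold change between genotypes was 0.17 (SE 0.27, 95% interval −0.48 to 0.82, adjusted p = 0.82, edgeR). It was −0.03 without wild-type 1 and −0.08 without S138A C, so its sign rested on single libraries. Per kilobase, the ratio of *Tdgf1* to *Nodal* was 6.78, 8.84 and 8.88 in wild-type 1 to 3, against 6.35, 6.21 and 10.0 in S138A A to C. Of the *Tdgf1* transcript's windows of 50 bases, 12.5% also occur in the pseudogene *Tdgf1-ps1*, so the count of shared reads is uncertain.

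The data on *Tdgf1* and *Nodal* can be read beside their promoters, taken from a RefSeq table used here that matched 3 of the 9 members (*Nodal*, *Tdgf1* and *Cer1*). Each is 250 bases before to 50 bases after the annotated start on GRCm38.p6, for *Nodal* at chr10:61417722-61418021 on the plus strand and for *Tdgf1* at chr9:110946109-110946408 on the minus strand. The capitals in the *Tdgf1* sequence mark GGGCGTGG, a KLF-type motif searched on both strands.
*Nodal*: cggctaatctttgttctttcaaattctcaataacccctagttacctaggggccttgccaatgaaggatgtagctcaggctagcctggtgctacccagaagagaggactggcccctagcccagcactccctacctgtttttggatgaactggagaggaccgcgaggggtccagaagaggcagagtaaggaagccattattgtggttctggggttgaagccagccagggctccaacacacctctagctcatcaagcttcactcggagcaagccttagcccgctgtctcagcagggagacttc
*Tdgf1*: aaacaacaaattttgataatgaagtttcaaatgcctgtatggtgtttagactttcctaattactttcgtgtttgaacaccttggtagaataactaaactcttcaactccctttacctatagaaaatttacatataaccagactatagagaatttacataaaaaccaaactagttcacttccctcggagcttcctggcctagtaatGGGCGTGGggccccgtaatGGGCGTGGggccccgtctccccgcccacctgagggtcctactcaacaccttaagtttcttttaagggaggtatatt
*Tdgf1* held 2 copies, at bases 206 and 225 of this window. Of 32851 promoters of this length, 5.33% held at least 1 copy and 0.728% at least 2. The FOXH1 motifs AATCCACA and AATACACA were found in none of the 3 promoters and in 0.855% and 0.98% of all of them. At such shares a search of 3 promoters would mostly find none, and sequence outside these windows was not searched. For SMADs only the full string GTCTAGAC was searched, and it was likewise in none of the 3 and in 0.213% of all. Its shorter parts GTCT and AGAC each occur in the *Nodal* and *Tdgf1* sequences shown and were not counted. The search therefore does not show that these promoters lack SMAD sites.

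*Lefty1* and *Lefty2*, the secreted antagonists that the pathway induces, varied most among libraries. *Lefty1* measured 15.4, 15.5 and 42.4 CPM in wild-type and 15.2, 16.1 and 90.7 CPM in S138A libraries. Wild-type 3 was 2.74 times and S138A C 5.8 times the mean of its genotype's other libraries, while the means of those other libraries differed between genotypes by a ratio of 1.01. Its log2 range over the 6 libraries, 2.54, was the widest of the members. The log2 fold change between genotypes was 0.73 (SE 0.78, 95% interval −1.11 to 2.58, adjusted p = 0.716, edgeR). It was −0.65 without S138A C.

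*Lefty2* measured 27.5, 25.0 and 30.3 CPM in wild-type and 24.3, 25.1 and 63.4 CPM in S138A libraries. S138A C was 2.57 times the mean of S138A A and B, whereas wild-type 3 was 1.15 times that of wild-type 1 and 2. S138A C therefore held the most of both Lefty genes, at 2.14 times (*Lefty1*) and 2.09 times (*Lefty2*) the level of wild-type 3. The log2 fold change was 0.45 (SE 0.38, 95% interval −0.44 to 1.33, adjusted p = 0.639, edgeR), and −0.17 without S138A C.

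The ratio of *Lefty1* to *Lefty2* per kilobase split the libraries in the same way in both genotypes. It was 0.829, 0.922 and 2.08 in wild-type 1 to 3 and 0.93, 0.953 and 2.12 in S138A A to C. *Lefty1* was thus below *Lefty2* in 4 libraries and above it in the other 2, with nearly the same ratio in each genotype. *Nodal* counts per summed *Lefty1* and *Lefty2* count were 1.79, 1.95 and 1.53 in wild-type, 2.77 and 2.75 in S138A A and B, and 0.704 in S138A C.

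**Figure D2:**
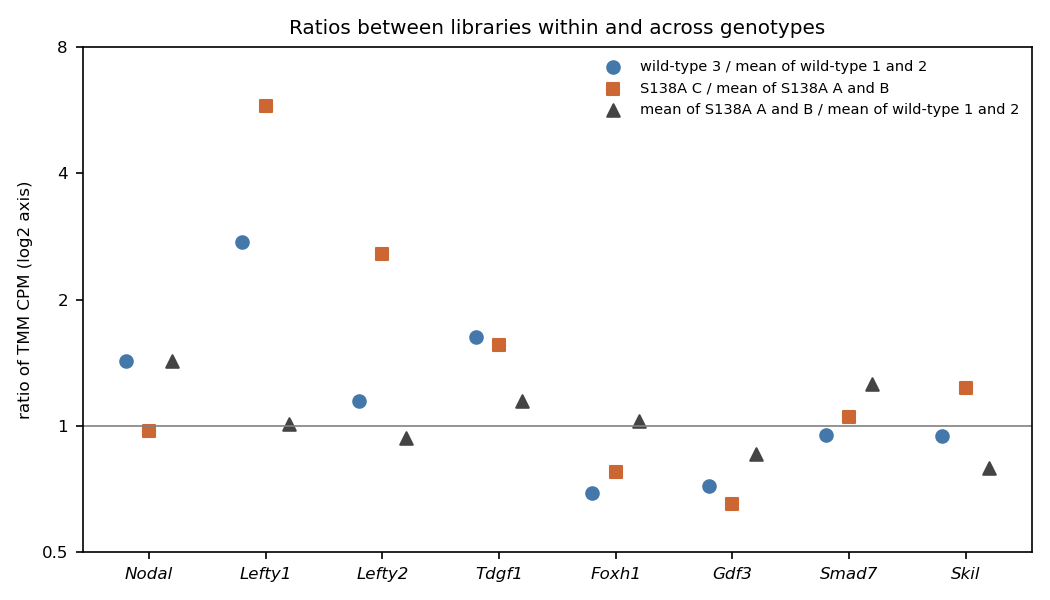
Ratios of TMM CPM on a log2 axis for the 8 tested members: wild-type 3 over wild-type 1 and 2 (circles), S138A C over S138A A and B (squares), and S138A A and B over wild-type 1 and 2 (triangles). *Lefty1* has the highest circle (2.74) and square (5.8) with its triangle at 1.01, whereas for *Nodal* the triangle stands at 1.43 and the square at 0.974.

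The Lefty genes are close copies, which bears on how reads were split between them. Their coding sequences in GENCODE M21 are 1104 bases each, with 1014 identical bases (91.8%) and a longest shared run of 140 bases. Coding bases 46 to 165 are shown because they held the most differences among the windows of 120 bases compared. The 34 differing bases are in capitals, and the coding sequence as a whole is more alike than this stretch.
*Lefty1*: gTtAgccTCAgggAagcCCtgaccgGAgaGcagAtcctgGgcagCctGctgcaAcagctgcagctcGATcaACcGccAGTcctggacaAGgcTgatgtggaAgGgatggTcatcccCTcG
*Lefty2*: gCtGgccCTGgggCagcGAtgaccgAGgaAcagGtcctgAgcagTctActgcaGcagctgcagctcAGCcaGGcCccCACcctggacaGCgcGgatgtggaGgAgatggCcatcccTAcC
Of the *Lefty1* transcript's windows of 50 bases, 17.9% also occur in *Lefty2*, and of those of 100 bases 4.8%. How the counting treated reads that match both was not given in the sources used here, so the split of the shared part is uncertain.

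Summed levels of markers of other cell states also set wild-type 3 and S138A C apart, though a sum can rest on its most abundant gene alone. The summed level of 7 primed epiblast markers, of which *Pou3f1* was at 0 in every library, was 241 and 186 CPM in these libraries and 331 to 409 CPM in the other 4. Neural markers (5 of 6 in the table, *Neurog1* and *Zic1* too low to test) summed to 58.9 and 52.1 against 114 to 125 CPM. The 7 mesoderm markers, of which *Mesp1* and *Msgn1* were too low to test, summed to 8.85 and 10.7 against 17.1 to 23.6 CPM. Trophoblast markers, 8 in all with *Elf5* too low to test, lay the other way, at 93.6 and 81.0 against 58.8 to 72.3 CPM. *Hand1* was in both the mesoderm and the trophoblast list. The 10 pluripotency markers summed to 4660 to 5210 CPM in all libraries, but *Pou5f1* was lower in wild-type 3 and S138A C (1017 and 953 against 1362 to 1428 CPM) and *Nanog* higher (937 and 774 against 601 to 616 CPM). The 8 primitive endoderm markers summed to 22.6 to 32.3 CPM. The part of these differences in the Lefty values was not tested. The 8 fibroblast markers, of which *S100a4*, *Lum* and *Dcn* were too low to test, summed to 41.5, 40.8 and 64.7 CPM in wild-type 1 to 3, against 104, 112 and 68.2 CPM in S138A A to C. The part of that difference in the comparison of the genotypes was not tested either. Of the pluripotency markers, *Zfp42* was lower in every S138A library, at 874.5, 692.1 and 611.4 against 942.3, 931.7 and 898.5 CPM in wild-type. Its log2 fold change was −0.35 (adjusted p = 0.337, edgeR), and 10.9% of all genes tested lay below in this way. *Pou5f1*, *Nanog*, *Sox2* and *Esrrb* had overlapping genotypes.

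By root mean square difference of centred log2 CPM over the 6 libraries, the genes most like *Lefty1* among 13699 others were *Fgd5* (0.112), *H2-Q2* (0.14), *Camk2n1* (0.154), *Enpp5* (0.175) and *Dnm1* (0.178). *Fgd5* measured 11.3, 10.7 and 26.3 CPM in wild-type and 11.3, 11.7 and 56.0 CPM in S138A libraries. *Lefty2* ranked 695 (0.573) and *Tdgf1* 1514 (0.694), so many genes followed *Lefty1* more closely than its own paralogue did. *H2-Q2* belongs to a family of near-identical genes, and its counts are uncertain.

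*Foxh1* encodes the forkhead partner that brings SMAD complexes to Nodal target genes. It measured 42.8, 42.1 and 29.4 CPM in wild-type and 40.3, 46.7 and 33.9 CPM in S138A libraries. As with *Gdf3*, the lowest library of each genotype was the one that stood apart. Between genotypes the log2 fold change was 0.08 (SE 0.19, 95% interval −0.36 to 0.53, adjusted p = 0.875, edgeR), and it was −0.08 without wild-type 3 and −0.04 without S138A B.

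*Smad7*, an inhibitory SMAD that TGF-beta signals induce and that blocks their receptors, was the member in which every S138A library lay above every wild-type one. It measured 70.5, 72.7 and 68.2 CPM in wild-type and 84.9, 95.7 and 94.4 CPM in S138A libraries. Across all genes tested, 11.3% had every S138A library above and 10.9% every one below, so this separation alone is common here. The log2 fold change was 0.38 (SE 0.09, 95% interval 0.16 to 0.60) and missed the threshold over all genes (adjusted p = 0.199, edgeR). An exact two-sided permutation test gave p = 0.1, the smallest that 3 against 3 libraries allow. The adjusted p was 0.0161 with the replicate block, 0.0132 without wild-type 3 and S138A C, and 0.0111 by DESeq2. S138A C was 1.38 times wild-type 3, and S138A A and B averaged 1.26 times wild-type 1 and 2.

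*Skil* encodes SnoN, a nuclear corepressor of SMAD complexes whose gene is itself a target of the pathway. It measured 278.7, 297.3 and 272.3 CPM in wild-type and 241.7, 214.9 and 281.5 CPM in S138A libraries. S138A A and B lay below all wild-type libraries and S138A C lay among them. S138A minus wild-type was −0.20 on the log2 scale (SE 0.12, 95% interval −0.49 to 0.08, adjusted p = 0.502, edgeR). It was −0.34 (adjusted p = 0.0113, edgeR) without wild-type 3 and S138A C. With a term for those libraries it was −0.21 and did not pass (adjusted p = 0.117, edgeR). *Skil* also missed with the replicate block (−0.21, adjusted p = 0.173, edgeR) and by DESeq2 (adjusted p = 0.508).

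**Figure D3:**
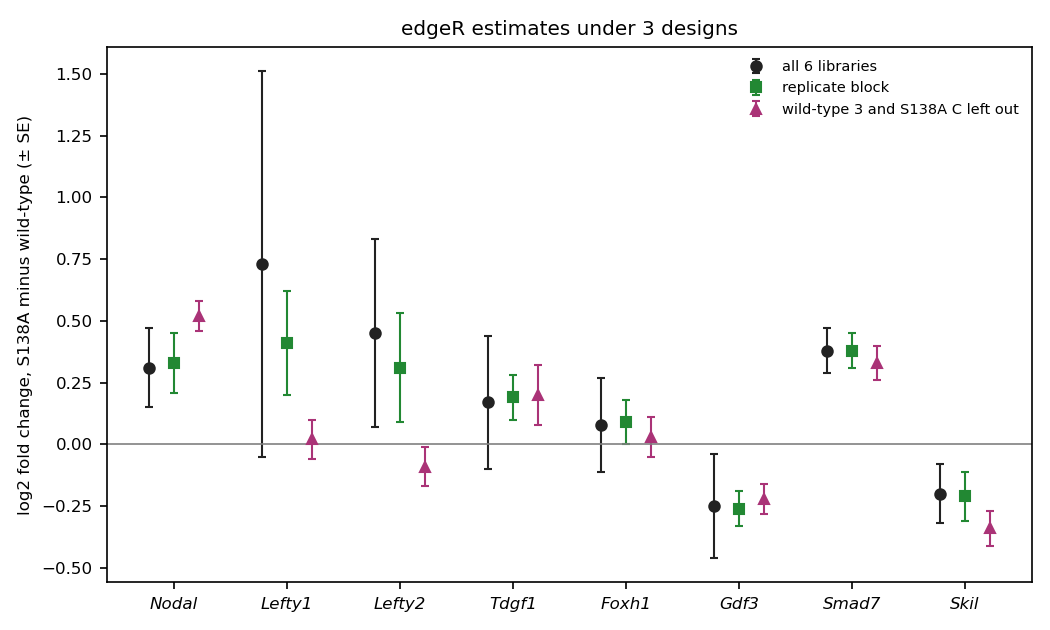
Log2 fold change of S138A against wild-type (± SE) from edgeR for the 8 tested members, with all 6 libraries (black circles), with the replicate block (green squares) and without wild-type 3 and S138A C (purple triangles). *Smad7* lies between 0.33 and 0.38 under all 3 designs, while *Lefty1* goes from 0.73 to 0.02.

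Of 42 further genes of the pathway, 41 were in the table and 37 were tested, and none passed in the fit of 6 libraries (4 had an unadjusted p under 0.05). Their median log2 fold change was 0.09. With the replicate block 6 rose and 2 fell, where the block called 19.8% of all genes, and DESeq2 called 2 higher and 1 lower, against 4.96% of all genes. The groups did not overlap in 11 of the 37, with S138A higher in 6 and lower in 5, beside 11.3% and 10.9% of all genes tested.

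Among ligands, convertases and receptors, *Inhbb*, a subunit of activin B, measured 77.5, 78.3 and 89.2 CPM in wild-type and 94.6, 97.0 and 92.0 CPM in S138A libraries (log2 fold change 0.21, adjusted p = 0.385, edgeR). *Inhba*, the activin A subunit, had 6 to 22 counts per library, and its difference on the log2 scale was −0.83 (adjusted p = 0.428, edgeR). The type II receptor gene *Acvr2b* measured 9.68, 10.1 and 14.5 CPM in wild-type and 13.5, 13.9 and 25.2 CPM in S138A libraries. Its log2 fold change was 0.62 (adjusted p = 0.408, edgeR), or 0.59 with the replicate block (adjusted p = 0.0156), and 0.26 without S138A C. For the type I receptor gene *Acvr1b*, S138A minus wild-type was 0.32 on the log2 scale (adjusted p = 0.575, edgeR). It passed with the block (0.31, adjusted p = 0.037, edgeR), but the value was 0.06 without S138A C. *Furin*, which codes for a convertase of TGF-beta ligand precursors, stood at 0.54 (adjusted p = 0.396) and passed with the block (0.57, adjusted p = 0.011, edgeR). Leaving out 1 library at a time, it ran from 0.35 without wild-type 2 to 0.81 without wild-type 3. For *Acvr2a*, the other type II receptor gene, the log2 fold change was −0.03 (adjusted p = 0.93, edgeR). The receptor gene *Acvr1c* and *Cfc1*, a co-receptor gene of the Cripto family, had at most 2 and 12 counts in any library and were not tested.

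Of the 9 SMADs and nuclear cofactors, *Smad2* (log2 fold change −0.16), *Smad3* (−0.08) and *Smad4* (0.01) had overlapping genotypes. Each of the 3 was measured at 23.1 CPM or more in every library. *Trim33*, which codes for a ubiquitin ligase and chromatin reader that binds SMADs, measured 141.9, 139.9 and 127.5 CPM in wild-type and 124.3, 113.3 and 105.6 CPM in S138A libraries. Its log2 fold change was −0.25 (adjusted p = 0.332, and 0.0353 with the replicate block, edgeR). The corepressor genes *Drap1* and *Tgif2* were also below wild-type in every S138A library (log2 fold changes −0.13 and −0.11), and *Ski*, a paralogue of *Skil*, was above (0.15), none of them past the threshold (adjusted p = 0.573, 0.587 and 0.532, edgeR). Among the 5 other antagonists, *Dand5*, which codes for a secreted Nodal inhibitor of the Cerberus family, measured 1.79, 1.64 and 1.86 CPM in wild-type and 1.94, 2.12 and 2.32 CPM in S138A libraries (log2 fold change 0.27, adjusted p = 0.623, edgeR).

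Among regulators of SMAD activity, *Pmepa1*, a TGF-beta target whose product restrains SMAD signalling, measured 27.2, 29.4 and 28.0 CPM in wild-type and 37.4, 37.1 and 37.3 CPM in S138A libraries. Like *Smad7*, it was higher in S138A in every library, with a log2 fold change of 0.40 (SE 0.10, adjusted p = 0.197, edgeR). The adjusted p was 0.0161 with the replicate block and 0.00234 by DESeq2. *Ppm1a*, which codes for a phosphatase of SMAD2 and SMAD3, measured 167.1, 163.3 and 169.9 CPM in wild-type and 141.0, 135.3 and 140.8 CPM in S138A libraries. Its log2 fold change was −0.26 (adjusted p = 0.251, and 0.0287 with the replicate block, edgeR). *Smurf1*, a ubiquitin ligase gene of the pathway, was above wild-type in every S138A library (0.18, adjusted p = 0.49, edgeR).

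Of 10 targets in the streak and endoderm, 8 were tested and none passed in the fit of 6 libraries, and with the replicate block, which called 19.8% of all genes, 2 rose and 0 fell. *Eomes*, a T-box gene of mesendoderm, measured 6.99, 7.43 and 4.43 CPM in wild-type and 11.2, 11.5 and 4.58 CPM in S138A libraries (log2 fold change 0.53, adjusted p = 0.576, edgeR). It was not among those 2, as it did not pass with the block (0.47, adjusted p = 0.0716, edgeR).

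**Figure D4:**
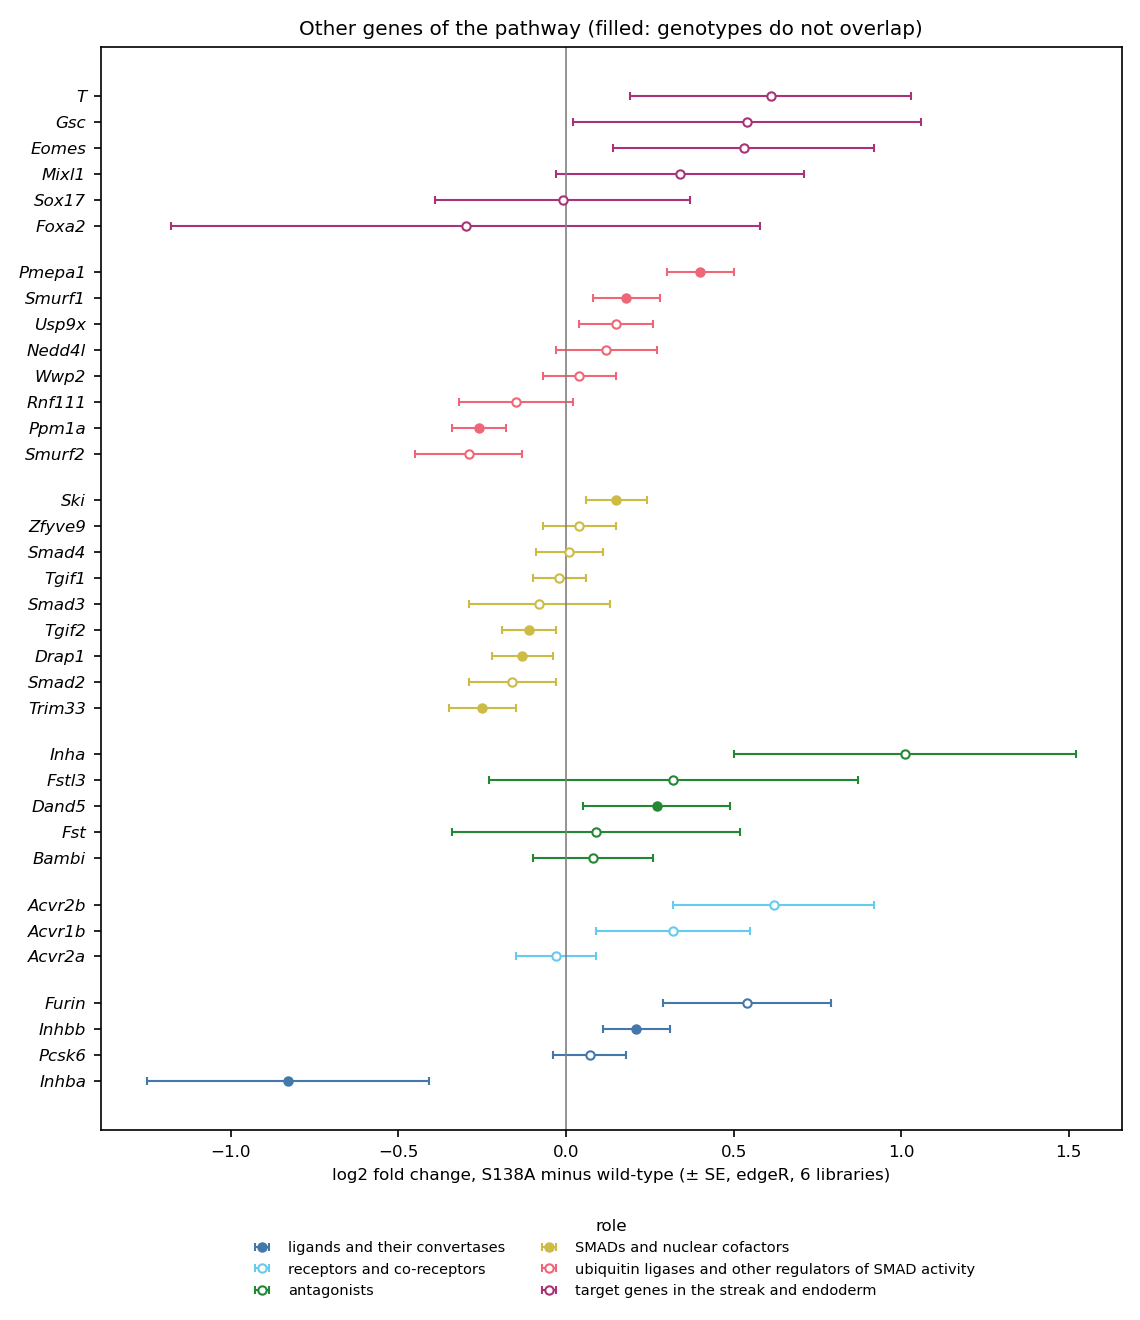
Log2 fold change of S138A against wild-type (± SE, edgeR, 6 libraries) for 35 of the 37 other tested genes of the pathway, coloured by role, with filled points where the genotypes do not overlap. *Inha* lies highest of those shown at 1.01 and *Inhba* lowest at −0.83. *Inha* had 51 counts in S138A C and 10 to 18 in each other library, and was 0.33 without S138A C.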

How the data were processed

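RNA was sequenced from 3 wild-type and 3 S138A ESC samples as stranded polyadenylated libraries. The authors deposited raw read counts per Ensembl gene. The submitters' processing notes name CASAVA 1.8.4, TopHat2 2.0.11, featureCounts and the mm9 (NCBIM37) build; counting settings were not given in the sources used here. Spike-in RNA was added, but 0 spike-in rows were in the table.

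Counts were filtered with filterByExpr (minimum count 10, minimum total 15), scaled by TMM and tested with edgeR 4.0.16 (R 4.3.3) under quasi-likelihood, with Benjamini-Hochberg adjustment over all genes tested. DESeq2 1.42.0 and limma-voom (limma 3.58.1) were alternatives, and scripts were tested on simulated data. The replicate block used the final digit of the column names. Deviations from genotype means correlated at 0.53, 0.493 and 0.753 for equal digits, but at 0.526 and 0.515 with digits 1 and 2 exchanged, so the digits are not known to pair those 4 libraries. Exon lengths came from GENCODE M21 (GRCm38), matched by gene identifier, and no coordinates were taken from mm9.

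The 9 members and all lists were chosen with earlier results of these data known. Named genes were all members, receptors, SMADs and other genes of the pathway list whose genotypes did not overlap, and the 5 genes most like the member with the widest range. *Furin*, *Eomes*, *Inha*, *Zfp42*, *Sox2* and *Esrrb* were named after their values were seen. Protein sequences and 6 promoters were not analysed here. Some genes of the pathway list are counted but not reported by name here.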

Additional observations from a re-analysis of the deposited data

How the results depend on the processing

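The count of genes passing the threshold depended on how the spread between libraries was modelled: 0 in the fit of 6 libraries, 4 with no filter beyond 1 count, 794 by DESeq2, 3180 with the replicate block, 4756 without wild-type 3 and S138A C and 4418 with a term for them. Leaving out 1 library at a time gave 0 to 79 genes, the 79 without S138A C. Members passing rose from 0 to 1, 2, 4 and 3 by DESeq2, the block, the left-out pair and the term, and other pathway genes from 0 to 3, 8, 10 and 10. Among members, the replicate block changed the calls of *Smad7* and *Gdf3* and of no other. Of 120 refits of single members, 103 kept direction and side of the threshold, 10 passed it and 7 turned sign. Leaving out 1 library at a time, *Lefty1* ran from −0.65 to 1.40, *Lefty2* from −0.17 to 0.68, *Tdgf1* from −0.08 to 0.44, *Foxh1* from −0.08 to 0.19, *Nodal* from 0.21 to 0.50 (highest without wild-type 3), *Gdf3* from −0.40 (without wild-type 3) to −0.08 (without S138A C), *Skil* from −0.31 (without S138A C) to −0.12 (without S138A B) and *Smad7* from 0.34 to 0.43 on the log2 scale. *Lefty1* and *Lefty2* turned sign without S138A C, *Tdgf1* without wild-type 1 (−0.03) or S138A C, and *Foxh1* without wild-type 3 or S138A B (−0.04). *Lefty2* was −0.09 without wild-type 3 and S138A C. The cause of these changes was not tested. With 3 libraries per genotype, 1 of which stood apart in each, the intervals of the Lefty genes span both directions. *Cer1* and 4 other genes of the pathway had too few reads to test, and *Inhba* had 6 to 22 counts per library.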
